A study of Rattus norvegicus with 30 samples.

Results

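The neuregulin and ErbB receptor genes examined here were *Nrg1* (ENSRNOG00000010392), *Erbb2* (ENSRNOG00000006450), *Erbb3* (ENSRNOG00000004964) and *Egfr* (ENSRNOG00000004332). They were taken by gene ID from a table of 32545 rat genes, all 4 were present, and all 4 had enough counts to be tested. The pairing of these IDs with symbols was given with the choice of genes, since the deposited table lists IDs alone. The series measured messenger RNA of the median nerve, a nerve of the forelimb, in 30 libraries from adult female wild-type rats. A gap of 8 mm was cut into the nerve, and a conduit 10 mm long, made of the chitin-derived polysaccharide chitosan, joined its ends. In the delayed repair the conduit was placed 3 months after the injury (5, 4 and 3 libraries at days 7, 14 and 21 after repair), and in the immediate repair at the time of injury (4, 4 and 5 libraries). The tissue that had grown inside the conduit was sequenced, and 5 libraries of healthy nerve served as control. Delayed tissue therefore came from nerves injured 3 months longer, and the wait cannot be told apart from the age of the injury. Replicates are numbered in the labels, which do not tie each to a separate animal. The p-values therefore measure the spread between these libraries, part of which may be technical.

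Neuregulin-1 is a growth factor of the epidermal growth factor family that binds ErbB3. ErbB3 has little kinase activity of its own and signals by pairing with ErbB2, a kinase with no known ligand. In Schwann cells, the glia of peripheral nerve, this pair drives survival, proliferation and myelination, and neuregulin-1 on axons sets the thickness of myelin. In mice, Schwann cells themselves begin to make neuregulin-1 after nerve injury. EGFR, the receptor of epidermal growth factor and transforming growth factor alpha, does not bind neuregulin-1 but can also pair with ErbB2.

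The 3 receptor genes fell at day 7 in both repairs, and the main edgeR test called no receptor against healthy nerve at day 21. In at least 1 alternative fit *Erbb2*, *Erbb3* and *Egfr* at delayed day 21 and *Erbb2* and *Egfr* at immediate day 21 were called lower. The ligand gene rose at days 14 and 21 in both repairs and at day 7 in immediate repair. Its delayed value at day 7 did not pass. Its day 21 calls were lost in 6 of 8 omissions of 1 library in delayed repair and 7 of 10 in immediate repair. Its immediate calls at days 7 and 14 were each lost in 1 of 9 omissions. The immediate day 7 call was also lost with voom sample quality weights. At day 7 *Erbb2* stood at a mean of 6.23% of its control level after delayed repair and 3.97% after immediate repair, the deepest fall of the 4 genes. *Erbb3* stood at 24.6% and 36.3%, and *Egfr* at 31.1% and 28.9%, in delayed and immediate repair. By day 21 the mean levels of the receptors lay between 40.9% and 57.9% of control. *Nrg1* averaged 735% of its control level in delayed tissue at day 14. In immediate tissue it averaged 501% at day 7 and 470% at day 14, a difference that did not pass the test (edgeR adjusted p = 0.944). The immediate day 7 libraries ran from 16.1% to 1059%. In bulk tissue, fewer cells of a type and less RNA per cell cannot be told apart. Rises and falls against control are differences between conduit tissue and healthy nerve, not changes followed in 1 tissue.

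Total counts per library lay between 11958242 and 17334752. Levels are given as CPM (counts scaled to the size of the library), computed with TMM factors. Transcript lengths were not used, so CPM values are compared between libraries and not between genes. Some libraries stood apart from their group. The Spearman correlation of log2 CPM over all tested genes with the mean of the rest of the group was 0.907 in delayed day 7 replicate 5, 0.932 in immediate day 21 replicate 4 and 0.934 in immediate day 7 replicate 4, the lowest 3 of the 30. The genes that mark Schwann cells and the other cell types of nerve could not be looked up by symbol, so the cell types in the tissue were not analysed here.

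Each repair group was set against the same 5 controls with edgeR's quasi-likelihood test, adjusted by Benjamini-Hochberg over 16015 genes, and a gene was called at an adjusted p under 0.05. In delayed repair the 4 genes gave 0 rises and 3 falls at day 7, where 64.4% of all tested genes were called, 31.5% as higher and 32.9% as lower. They gave 1 rise and 1 fall at day 14 (51.9% called, 26.2% higher and 25.7% lower) and 1 rise at day 21 (44.3% called, 23.1% higher and 21.2% lower). In immediate repair they gave 1 rise and 3 falls at day 7 (65.2% called, 30.2% higher and 35% lower), 1 rise and 2 falls at day 14 (51.4% called, 26.1% higher and 25.4% lower) and 1 rise at day 21 (47.7% called, 24.8% higher and 22.8% lower). Against such backgrounds the number of calls does not set these 4 genes apart. The median log2 fold change over all tested genes against control lay between -0.08 and 0.02 in the 6 comparisons. Lying wholly below the controls was also common: at days 7, 14 and 21 this held for 26.8%, 27.8% and 27.2% of tested genes in delayed repair and for 31.7%, 26.4% and 22% in immediate repair. Lying wholly above them at day 14 held for 26.6% in delayed and 24.6% in immediate repair.

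**Figure D1:**
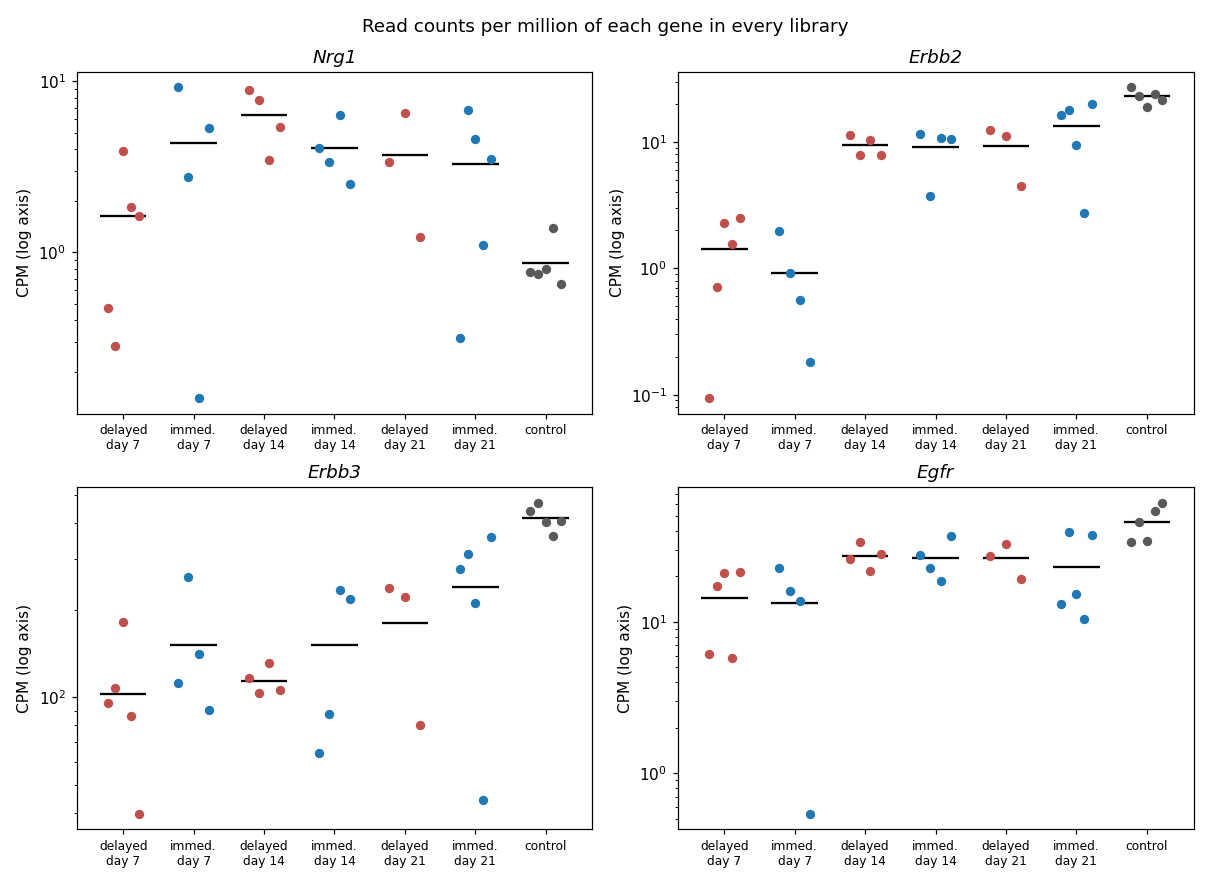
CPM (log axis) of the 4 genes in each of the 30 libraries, by group, with points for libraries and a line for the group mean. The day 7 points of *Erbb2* lie between 0.0938 and 2.502 CPM, below those of every other library of the series. The share of tested genes for which this holds was not computed.

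*Erbb2* and *Egfr* were the receptor genes whose levels ran most alike across the 30 libraries (Pearson r = 0.757 on log2 CPM, a description, over libraries that share their groups). Promoter windows from the RefSeq annotation of the rat build GRCr8 are shown for these genes. Each is the 250 bases before the start on the plus strand, with a GC box (GGGCGG on either strand) in capitals. The set of windows used held none under the symbols *Nrg1* and *Erbb3*. *Erbb2* lies at chr10:83907351-83907600 and *Egfr* at chr14:95378376-95378625.
Erbb2: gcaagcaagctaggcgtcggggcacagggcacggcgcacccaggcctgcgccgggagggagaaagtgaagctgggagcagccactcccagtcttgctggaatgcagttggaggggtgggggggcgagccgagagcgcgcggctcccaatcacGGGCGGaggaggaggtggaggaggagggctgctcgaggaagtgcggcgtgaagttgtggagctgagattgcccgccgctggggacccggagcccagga
Egfr: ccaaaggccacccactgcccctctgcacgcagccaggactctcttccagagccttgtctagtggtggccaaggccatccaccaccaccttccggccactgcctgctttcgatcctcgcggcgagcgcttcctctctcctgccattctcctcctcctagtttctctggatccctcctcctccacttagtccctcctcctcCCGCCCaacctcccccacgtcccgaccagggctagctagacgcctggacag
Each window held 1 GC box, as 30.5% of the 33469 promoter windows of the same length did. Neither held a TATA box (TATAAA, present in 12.9% of windows) or an AP-1 site (TGANTCA, 6.34%). *Erbb2* had 1 E-box (CANNTG, 65.5%) and *Egfr* none, both strands searched, and no match overlapped another. GC content was 69.2% in *Erbb2* and 63.6% in *Egfr*, against a median of 51.2% over all windows. These matches describe the sequence only.

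*Nrg1*, the ligand, had few counts in healthy nerve, 8 to 20 per library. It measured 0.469, 0.283, 3.88, 1.84 and 1.63 CPM in the delayed day 7 libraries and 9.20, 2.74, 0.140 and 5.32 CPM in the immediate day 7 libraries, against 0.764, 0.749, 0.798, 1.384 and 0.648 CPM in control nerve. Day 7 libraries thus lay on both sides of the control range. Of the 9, 6 were above every control and 3 were below every control. The 3 low ones had 2, 4 and 5 counts, and an exact Poisson interval for 2 counts runs from 0.24 to 7.22, which covers counting error only.

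At day 14 every library was above every control. *Nrg1* measured 8.87, 7.80, 3.46 and 5.40 CPM after delayed repair and 4.07, 3.39, 6.36 and 2.52 CPM after immediate repair. At day 21 it measured 3.38, 6.52 and 1.23 CPM after delayed repair and 0.316, 6.80, 4.59, 1.10 and 3.52 CPM after immediate repair. Delayed replicate 3 and immediate replicates 1 and 4 stood below the highest control, and the other 5 libraries above it.

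*Nrg1* rose against control in 5 of the 6 repair groups. In delayed repair the log2 fold change was 0.90 at day 7 (SE 0.76, edgeR adjusted p = 0.304), which did not pass, and it was 0.29 without delayed replicate 3. It was 2.86 at day 14 (SE 0.80, edgeR adjusted p = 0.00416) and 2.08 at day 21 (SE 0.84, edgeR adjusted p = 0.0452). In immediate repair it was 2.31 at day 7 (SE 0.80, edgeR adjusted p = 0.0133), 2.22 at day 14 (SE 0.79, edgeR adjusted p = 0.0217) and 1.90 at day 21 (SE 0.76, edgeR adjusted p = 0.0422).

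Only the delayed day 14 rise of *Nrg1* held in each alternative and without any 1 library of its groups. The immediate day 7 rise was lost without immediate day 7 replicate 1 (1.63, edgeR adjusted p = 0.0866) and with voom sample quality weights (1.29, limma adjusted p = 0.184), and the immediate day 14 rise without immediate day 14 replicate 3 (1.92, edgeR adjusted p = 0.0635). The immediate day 21 rise was lost without control replicate 1, 2, 3 or 5 or immediate day 21 replicate 2, 3 or 5, at 1.45 (without immediate replicate 2) to 1.88 and an edgeR adjusted p of 0.0600 to 0.135. The delayed day 21 rise was lost without control replicate 1, 2, 3 or 5 or delayed day 21 replicate 1 or 2, at 1.40 (without delayed replicate 2) to 2.15 and an edgeR adjusted p of 0.0728 to 0.254. With the replicate block the day 21 values were 1.99 after delayed and 1.84 after immediate repair (edgeR adjusted p = 0.101 and 0.0789).

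*Erbb3*, the receptor that binds neuregulin-1, was below the lowest control in all 25 repair libraries. By group, 22% to 31.7% of tested genes were, and the share for all 25 libraries at once was not computed. At day 7 *Erbb3* measured 95.8, 107.7, 182.8, 86.3 and 39.7 CPM after delayed repair and 112.3, 260.3, 141.6 and 90.5 CPM after immediate repair, against 441.7, 470.3, 404.8, 359.6 and 405.2 CPM in control nerve. Delayed replicate 5 was the lowest of the day 7 libraries and immediate replicate 2 the highest. At day 14 the 4 delayed libraries were nearly alike, at 116.7, 103.2, 131.1 and 105.7 CPM. The 4 immediate libraries at day 14 fell into a low pair, 64.3 and 87.7 CPM, and a high pair, 235.5 and 218.5 CPM. At day 21 it measured 238.4, 221.4 and 80.4 CPM after delayed repair and 277, 313, 211, 44.3 and 358 CPM after immediate repair. Delayed replicate 3 and immediate replicate 4 stood below the other libraries of their groups.

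*Erbb3* fell at days 7 and 14 in both repairs. In delayed repair the log2 fold change against control was -2.02 at day 7 (SE 0.45, edgeR adjusted p = 0.000407), -1.87 at day 14 (SE 0.49, edgeR adjusted p = 0.00245) and -1.21 at day 21 (SE 0.53, edgeR adjusted p = 0.0658), which did not pass. In immediate repair it was -1.46 at day 7 (SE 0.48, edgeR adjusted p = 0.0101), -1.46 at day 14 (SE 0.48, edgeR adjusted p = 0.0135) and -0.79 at day 21 (SE 0.44, edgeR adjusted p = 0.143). At day 14 of immediate repair the call was lost without the low immediate replicate 1 (-1.17, edgeR adjusted p = 0.0611) or 2 (-1.27, edgeR adjusted p = 0.0510). The delayed day 21 value was past the threshold when only its 2 groups were fitted (-1.17, edgeR adjusted p = 0.0104). No change of *Erbb3* between days passed the test. From day 7 to day 21 the log2 fold change was 0.81 in delayed repair (SE 0.50, edgeR adjusted p = 0.227) and 0.67 in immediate repair (SE 0.47, edgeR adjusted p = 0.257). Without both delayed day 7 replicate 5 and immediate day 21 replicate 4 the immediate value was 0.94 (edgeR adjusted p = 0.0440).

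*Erbb2*, the kinase partner, was far below its control level at day 7. The delayed day 7 libraries held 1, 10, 36, 23 and 40 counts of it and the immediate ones 31, 12, 8 and 2, against 390, 373, 238, 346 and 267 counts in control nerve. In CPM these were 0.0938, 0.707, 2.29, 1.57 and 2.502 after delayed repair and 2.00, 0.912, 0.559 and 0.180 after immediate repair, against 27.1, 23.3, 19.0, 23.9 and 21.6 in control nerve. The highest day 7 library reached 10.9% of the control mean. For the single count in delayed replicate 1 the exact Poisson interval is 0.03 to 5.57 counts, and for the 2 counts in immediate replicate 4 it is 0.24 to 7.22.

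At day 14 *Erbb2* measured 11.3, 7.96, 10.4 and 7.97 CPM after delayed repair and 11.6, 3.77, 10.8 and 10.6 CPM after immediate repair. At day 21 it measured 12.5, 11.2 and 4.52 CPM after delayed repair and 16.4, 17.9, 9.48, 2.74 and 19.9 CPM after immediate repair. All 16 libraries of days 14 and 21 exceeded the highest one of day 7. Of the 16, 15 were below the lowest control, and immediate day 21 replicate 5 was within the control range.

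In delayed repair the log2 fold change of *Erbb2* against control was -3.97 at day 7 (SE 0.58, edgeR adjusted p = 1.97e-06), -1.29 at day 14 (SE 0.55, edgeR adjusted p = 0.0539) and -1.29 at day 21 (SE 0.61, edgeR adjusted p = 0.0907). In immediate repair it was -4.61 at day 7 (SE 0.67, edgeR adjusted p = 1.67e-06), -1.32 at day 14 (SE 0.56, edgeR adjusted p = 0.0489) and -0.79 at day 21 (SE 0.51, edgeR adjusted p = 0.209). The day 7 falls were 15.7-fold after delayed and 24.4-fold after immediate repair, and both held in every alternative and without any 1 library of their groups. Without immediate replicate 1, the highest of its group, the immediate value was -5.34. Over all tested genes, 5.90% had a lower log2 fold change than *Erbb2* in the delayed comparison and 7.52% in the immediate one.

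The day 14 values of *Erbb2* lay at the edge of the threshold. The immediate call was lost without any 1 of the 9 libraries compared, at -1.06 (without immediate replicate 2) to -1.42 and an edgeR adjusted p of 0.0557 to 0.146, and with the replicate block (-1.23, edgeR adjusted p = 0.0756). The delayed fall was called when only its 2 groups were fitted (-1.25, edgeR adjusted p = 3.35e-05), with DESeq2 (-1.29, DESeq2 adjusted p = 0.0302) and with voom sample quality weights (-1.38, limma adjusted p = 3.44e-05). In both repairs the day 14 libraries did not overlap the controls.

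**Figure D2:**
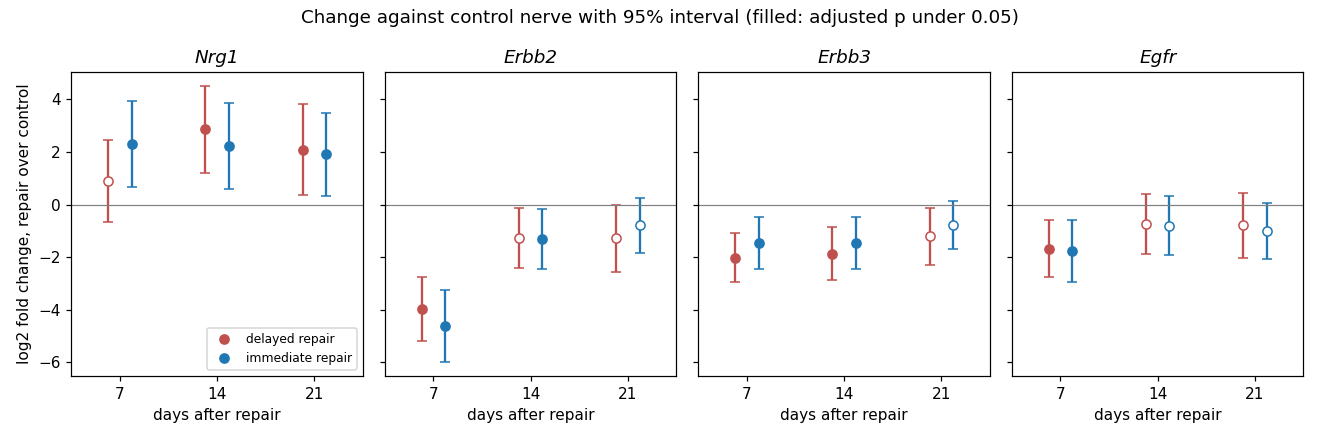
Log2 fold change against control nerve with its 95% interval, by day after repair, for delayed and immediate repair, with filled points where the edgeR adjusted p was under 0.05. *Erbb2* stands at -3.97 and -4.61 at day 7 in delayed and immediate repair and between -1.32 and -0.79 later, and *Nrg1* is above 0 at each point.

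*Erbb2* was the only one of the 4 genes that rose between days. From day 7 to day 14 the log2 fold change was 2.68 in delayed repair (SE 0.57, edgeR adjusted p = 0.00134) and 3.29 in immediate repair (SE 0.65, edgeR adjusted p = 0.000541). Of all tested genes, 34.7% were called between these days in delayed repair (18.1% higher) and 33.7% in immediate repair (19.5% higher), and 15.6% and 17.4% lay wholly above their day 7 libraries. From day 14 to day 21 it was -0.003 in delayed repair (SE 0.615, edgeR adjusted p = 1) and 0.53 in immediate repair (SE 0.54, edgeR adjusted p = 0.905), so no further change was detectable. Between these days edgeR called 0 of all tested genes (0%) in delayed repair, where 620 (3.87%) had an unadjusted p under 0.05, DESeq2 called 36 and voom with quality weights 69, and 0.256% in immediate repair. From day 7 to day 21 it was 2.68 in delayed (SE 0.60, edgeR adjusted p = 0.00266) and 3.82 in immediate repair (SE 0.65, edgeR adjusted p = 6.58e-05), where 26.1% and 43.1% of tested genes were called (15.1% and 24.5% higher) and 15.5% and 16.8% lay wholly above day 7. The delayed rise to day 21 was lost when only its 2 groups were fitted (2.71, edgeR adjusted p = 0.0674). The rises to days 14 and 21 of immediate repair were 4.02 and 4.55 without immediate day 7 replicate 1. *Nrg1* came close to the threshold from day 7 to day 14 of delayed repair, at 1.96 (SE 0.77, edgeR adjusted p = 0.0503), which was past it with RLE factors (1.97, edgeR adjusted p = 0.0483) and with DESeq2 (1.99, DESeq2 adjusted p = 0.0252). Without delayed day 7 replicate 3, the highest of its group, it was 2.57 (edgeR adjusted p = 0.0194).

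*Egfr*, the receptor of epidermal growth factor, fell at day 7 in both repairs. It measured 6.09, 17.3, 21.1, 5.73 and 21.5 CPM in the delayed day 7 libraries and 22.8, 16.1, 13.8 and 0.541 CPM in the immediate ones, against 33.7, 46.0, 34.3, 54.6 and 61.5 CPM in control nerve. Immediate replicate 4, with 6 counts, was far below the rest, and all 9 were below every control. The log2 fold change was -1.68 in delayed (SE 0.53, edgeR adjusted p = 0.00731) and -1.78 in immediate repair (SE 0.57, edgeR adjusted p = 0.00837). Without immediate replicate 4 the immediate value was -1.39 (edgeR adjusted p = 0.0101), and in a fit of its 2 groups alone it was -1.71 and did not pass (edgeR adjusted p = 0.0502).

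At day 14 *Egfr* measured 26.2, 34.0, 21.6 and 28.0 CPM after delayed repair and 27.7, 22.6, 18.6 and 36.8 CPM after immediate repair. At day 21 it measured 27.3, 33.04 and 19.2 CPM after delayed repair and 13.2, 39.1, 15.3, 10.48 and 37.3 CPM after immediate repair. Every delayed day 14 library lay above every delayed day 7 library, but the log2 fold change of 0.93 did not pass (SE 0.54, edgeR adjusted p = 0.186). In immediate repair 2 of the day 21 libraries lay within the control range and 3 below it. The log2 fold changes against control were -0.75 and -0.80 in delayed repair at days 14 and 21 and -0.80 and -0.99 in immediate repair, and none passed (edgeR adjusted p = 0.266, 0.303, 0.233 and 0.116). Fitted with only their 2 groups, the delayed values were past the threshold at both days (-0.705 and -0.76, edgeR adjusted p = 0.00971 and 0.0263), as was the immediate value at day 14 (-0.755, edgeR adjusted p = 0.0189). In these smaller fits the spread comes from the groups compared, without the day 7 libraries. With voom sample quality weights the delayed day 14 value and the immediate day 21 value passed (-0.73 and -1.01, limma adjusted p = 0.0213 and 0.0110).

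Set in order of group means, *Erbb2*, *Erbb3* and *Egfr* were highest in control nerve and *Nrg1* lowest there. The only neighbours in any of these orders that differed by the test were, for *Erbb2*, immediate day 14 at 9.20 ± 3.65 CPM (SD, n = 4) and delayed day 7 at 1.43 ± 1.03 CPM (SD, n = 5), whose libraries did not overlap (edgeR adjusted p = 0.00169). For *Erbb3* the next group after control, immediate day 21 at 240.7 ± 122.3 CPM (SD, n = 5), had no library within the control range of 416 ± 41.9 CPM (SD, n = 5), but the test did not pass. The other neighbours overlapped. At day 7 the coefficient of variation of *Nrg1* was 88.8% in delayed and 88.9% in immediate repair, against 33.8% in control nerve. For *Erbb2* it was 71.7% in delayed and 85.7% in immediate repair, against 13.0% in control nerve.

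The count of *Erbb3* per count of *Erbb2* in the same library does not depend on how libraries are scaled, and shows whether the partner receptors changed unequally. In the delayed day 7 libraries it was 1022, 152, 79.8, 55.0 and 15.9, and in the immediate day 7 libraries 56.3, 285, 253 and 502, against 16.3, 20.2, 21.3, 15.0 and 18.7 in control nerve. Of the 9 day 7 libraries 8 exceeded every control, and delayed replicate 5 lay inside the control range. The value of 1022 rests on a single *Erbb2* count. On the log2 scale the ratio differed from control by 2.34 in delayed repair (two-sided exact permutation test, p = 0.0397, adjusted p = 0.119 over 9 tests) and by 3.43 in immediate repair (exact permutation p = 0.0159, the smallest that groups of 4 and 5 allow, adjusted p = 0.0714). Neither passed the correction. With 9 tests, the smallest p that groups of 4 and 5 allow passes only if other tests come as low. Failing it therefore does not show that the ratio was unchanged. The delayed difference was 1.62 without delayed day 7 replicate 1, the library with the single count (exact permutation test, adjusted p = 0.193), and 2.98 without delayed day 7 replicate 5 (exact permutation test, adjusted p = 0.0476). Over all 10 omissions the adjusted p of this exact permutation test ran from 0.0476 to 0.238.

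At day 21 the ratio lay within the control range in 7 of the 8 libraries, at 19.1, 19.8 and 17.8 after delayed repair and 16.8, 17.5, 22.3, 16.2 and 18.0 after immediate repair. This included delayed replicate 3 and immediate replicate 4, in which both receptors were low. The differences from control were 0.052 in delayed (exact permutation p = 0.714, adjusted p = 0.905) and -0.015 in immediate repair (exact permutation p = 0.905, adjusted p = 0.905). At day 14 the ratio was 10.3, 13.0, 12.6 and 13.3 after delayed repair, below every control, a log2 difference of -0.57 (exact permutation p = 0.0159, adjusted p = 0.0714). After immediate repair it was 5.54, 23.3, 21.8 and 20.6 at day 14, a difference of -0.23 (exact permutation p = 0.873, adjusted p = 0.905) that was 0.26 without replicate 1 (exact permutation test, adjusted p = 0.129).

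**Figure D3:**
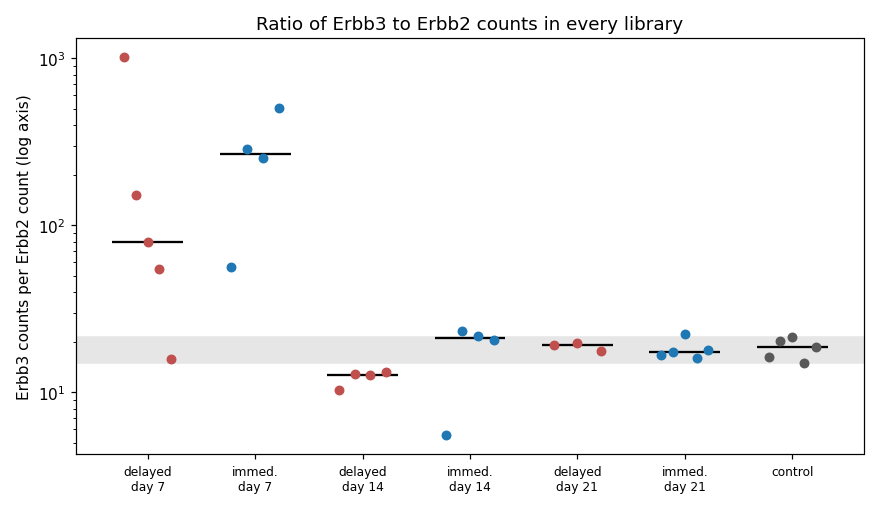
Counts of *Erbb3* per count of *Erbb2* (log axis) in each library, by group, with the group median as a line and the control range, 15.0 to 21.3, shaded. Day 7 libraries reach from 15.9 to 1022, and day 21 libraries from 16.2 to 22.3.

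Delayed repair was then compared with immediate repair at the same day. None of the 4 genes passed the edgeR test at any day, and the libraries of the repairs overlapped for every gene. Over all tested genes 0.712% were called at day 7, 0% at day 14 and 0.05% at day 21, and 0.375%, 1.9% and 4.21% had libraries that did not overlap. The day 7 number depended on the fit: 114 genes in the main edgeR test, 15 with RLE factors, 0 with voom with quality weights and 341 with DESeq2. At day 14, where edgeR called 0 genes, 244 (1.52%) had an unadjusted p under 0.05, and DESeq2 called 7 and voom with quality weights 2. The largest difference among the 4 in this fit was that of *Nrg1* at day 7, 1.62 ± 1.44 CPM after delayed (SD, n = 5) and 4.35 ± 3.86 CPM after immediate repair (SD, n = 4). Its log2 fold change was -1.41 (95% interval -2.99 to 0.17, edgeR adjusted p = 0.705), lower than that of all but 1.43% of tested genes. It was -0.73 without immediate replicate 1 and -2.02 without delayed replicate 3. With voom sample quality weights it was -0.56 and no longer the largest, since *Erbb3* at day 7 was at -0.72 and *Nrg1* at day 14 at 0.84. For *Nrg1* the interval was -0.99 to 2.28 at day 14 and -1.51 to 1.87 at day 21.

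For the receptors the intervals of the delayed minus immediate log2 difference, by day from the first to the last, were -1.51 to 0.39, -1.42 to 0.60 and -1.47 to 0.64 for *Erbb3*. They were -0.62 to 1.91, -1.14 to 1.21 and -1.73 to 0.725 for *Erbb2*, and -1.03 to 1.24, -1.13 to 1.23 and -1.01 to 1.41 for *Egfr*. Each interval reached past a 2-fold difference in at least 1 direction and so leaves room for one of that size. Those of *Erbb3* at each day and of *Erbb2* at day 21 did so only towards lower levels in delayed repair. That of *Erbb2* at day 7 did so only towards higher levels in delayed repair. The mean of *Erbb3* was lower in delayed repair at each day (102.5, 114.2 and 180.1 CPM after delayed repair, 151.2, 151.5 and 240.7 CPM after immediate repair), with log2 fold changes of -0.56, -0.41 and -0.42 (edgeR adjusted p = 0.942, 1 and 1). A change of that difference from day to day was tested as an interaction of repair and day. None of the 4 passed (edgeR adjusted p = 1 for each, unadjusted p = 0.169 for *Nrg1*, 0.422 for *Erbb2*, 0.968 for *Erbb3* and 0.984 for *Egfr*). Of all tested genes edgeR called 0 for the interaction, with 951 (5.94%) at an unadjusted p under 0.05, while DESeq2 called 62 and voom with quality weights 0.

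**Figure D4:**
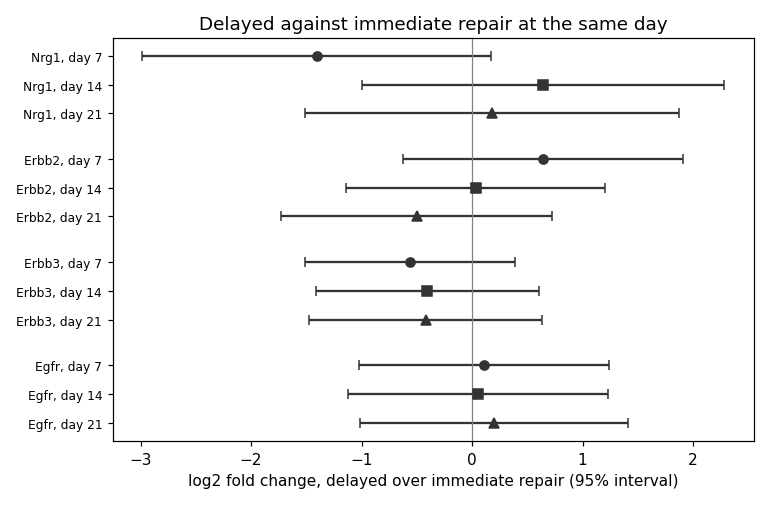
Log2 fold change of delayed over immediate repair at the same day with its 95% interval for the 4 genes. All 12 intervals include 0, and the farthest value is that of *Nrg1* at day 7, -1.41.

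At day 21 single libraries were low across genes. Delayed day 21 replicate 3 had the lowest level of its group in all 4 genes. Immediate day 21 replicate 4 had the lowest *Erbb2*, *Erbb3* and *Egfr* of its group, at 11.9%, 10.6% and 22.8% of the control mean. The same held for immediate day 7 replicate 4, lowest for the 3 receptors, while immediate day 7 replicate 1 had the highest *Nrg1*, *Erbb2* and *Egfr*. Without delayed day 21 replicate 3 the log2 fold changes of *Erbb2*, *Erbb3* and *Egfr* against control were -0.96, -0.86 and -0.61, and without immediate day 21 replicate 4 they were -0.53, -0.52 and -0.81. None passed with or without them.

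**Figure D5:**
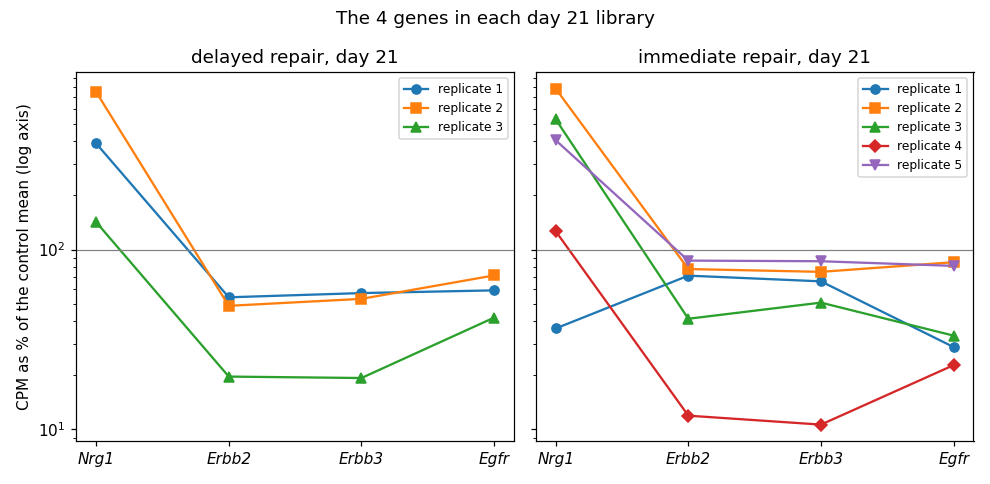
Level of each gene as a percentage of its control mean (log axis) in the 3 delayed and 5 immediate libraries of day 21, 1 line per library. Within its own repair, the line of delayed replicate 3 and that of immediate replicate 4 run lowest for *Erbb2*, *Erbb3* and *Egfr*, and *Nrg1* lies above 100% in all but immediate replicate 1.

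The genes whose levels followed those of the 4 most closely were sought among 12473 genes whose log2 CPM averaged 1 or more, by Pearson correlation of log2 CPM over the 30 libraries. Differences between groups and variation within them were not separated in these correlations. For *Erbb2* the closest were ENSRNOG00000046955 (r = 0.977) and ENSRNOG00000010308 (r = 0.976). ENSRNOG00000010308 averaged 7.82 CPM in delayed and 1.92 CPM in immediate tissue at day 7, against 250.3 CPM in control nerve. For *Nrg1* they were ENSRNOG00000045829 (r = 0.813) and ENSRNOG00000056228 (r = 0.763). ENSRNOG00000045829 averaged 1092 CPM in delayed and 606 CPM in immediate tissue at day 14, against 129 CPM in control nerve. The highest correlation with any gene was 0.914 for *Erbb3* and 0.942 for *Egfr*. Among the 4 genes, *Erbb2* and *Erbb3* had r = 0.585 and *Erbb3* and *Egfr* r = 0.472, while *Nrg1* had r between -0.129 and 0.177 with the receptors.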

How the data were processed

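The deposited table holds whole-number read counts by gene, 1 column per library, and replicates were not pooled. Per the labels' protocols, libraries were made without strand marking from 400 ng of total RNA (integrity number above 6) by poly(T) capture, so reads of overlapping or antisense genes cannot be told apart. Tools named in the submitters' processing notes, without their roles, are featureCounts 1.5.0-p3, HISAT2 2.0.5 and DESeq2 1.38.3. Of genome build and annotation nothing is given in the sources used here. Columns were matched to samples by library name. None of the 47357 genes of the RefSeq table carries a matching Ensembl ID, so the lists of pathway and marker genes written by symbol were not used.

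The main test was that of edgeR 4.0.16 in R 4.3.3 (filterByExpr, which left 16015 genes, or 49.2%; TMM; 1 robust quasi-likelihood fit of 7 groups; Benjamini-Hochberg over all genes tested). The 7 groups share 1 spread per gene, so a comparison of tight groups also carries the wider spread of the others. Standard errors and 95% intervals come from the test statistic. Each receptor ratio is log2 of counts plus 0.5, compared with exact permutation tests. Alternatives used DESeq2 1.42.0, limma 3.58.1 voom and other settings. The edgeR fit was tried on simulated counts, and the permutation test on 1 made-up example of separated groups. Over 51 replicate pairs within groups the counts differed by a chi-square of at least 14.9 per degree of freedom. None of these pairs was thus a repeat of the same library. Pairs across groups were not compared, and the check cannot exclude libraries from the same animal. Genes were named by rule: the 4 members, and for each the 2 genes with the highest correlation over 30 libraries, printed by ID for *Nrg1* and *Erbb2* alone because the IDs carry no symbol, a restriction made after the values were seen. The members, comparisons and the libraries left out together were chosen with earlier results of these data known.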

Additional observations from a re-analysis of the deposited data

Results flagged for a closer look

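Over 30 sets of values (the 4 genes and the receptor ratio in the 6 groups of 4 or 5 libraries), 3 held a library far from the others of its group, and chance gives about 1 in 20. *Nrg1* in control nerve was 1.384 CPM in replicate 4, above the other 4 controls. *Erbb2* at day 14 of immediate repair was 3.77 CPM in replicate 2, below the other 3 libraries. The log2 ratio of *Erbb3* to *Erbb2* counts at day 14 of immediate repair was 2.47 in replicate 1, below the other 3, in the library that had the lowest *Erbb3* and the highest *Erbb2* of its group. Their causes were not tested.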

How the results depend on the processing

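There were 60 fold changes, of 4 genes in 15 comparisons. Among those called in the main test, the day 7 falls of *Erbb2* and *Erbb3* in both repairs and of *Egfr* in delayed repair kept direction and call in every alternative. So did the day 14 rise of *Nrg1* and fall of *Erbb3* in delayed repair, and the rises of *Erbb2* to day 14 in both repairs and to day 21 in immediate repair. Fold changes not called in the main test are left out of this list, and some of them also kept direction and stayed uncalled throughout. Without the filter on low counts, 3 calls against control were lost: *Erbb2* at immediate day 14 (-1.28) and *Nrg1* at delayed and immediate day 21 (2.12 and 1.95). *Erbb3* between days 7 and 14 of immediate repair turned to -0.014 and *Erbb2* between days 14 and 21 of delayed repair to 0.0. With the replicate block, the same 3 calls were lost (-1.23, 1.99 and 1.84), and *Egfr* of delayed against immediate repair turned to -0.058 at day 7 and -0.010 at day 14. It changed no other call. Same-numbered libraries correlated between -0.66 and 0.41 in their deviations from the group means. In none of the 15 comparisons did every pair exceed 0.1. Delayed against immediate repair at day 14 came closest, with 4 pairs from 0.084 to 0.41. There 3 delayed libraries correlated best with the immediate one of their own number. The labels give no pairing beyond the number, and this check cannot exclude one. With RLE factors *Nrg1* passed from day 7 to 14 of delayed repair (1.97), as with DESeq2 (1.99), which also called *Erbb2* at delayed day 14 (-1.29) and *Erbb3* at delayed day 21 (-1.21).

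Fitting the compared groups alone lost *Egfr* at immediate day 7 (-1.71) and *Erbb2* from day 7 to 21 of delayed repair (2.71). It added, against control, *Egfr* at delayed days 14 and 21 (-0.705 and -0.76) and immediate day 14 (-0.755), *Erbb2* at delayed days 14 and 21 (-1.245 and -1.255) and *Erbb3* at delayed day 21 (-1.17), and turned *Erbb3* between days 7 and 14 of immediate repair to -0.001. Voom with quality weights lost *Nrg1* at immediate days 7 and 21 (1.29 and 1.52). It added, against control, *Erbb2* at delayed days 14 and 21 and immediate day 21 (-1.38, -1.24 and -0.79), *Egfr* at delayed day 14 and immediate day 21 (-0.73 and -1.01) and *Erbb3* at delayed day 21 (-1.14). It turned, none of them called, *Egfr* of delayed against immediate repair at days 7 and 14 (-0.098 and -0.088), *Erbb2* at day 14 (-0.072), *Nrg1* from day 7 to days 14 and 21 of immediate repair (0.64 and 0.23), *Erbb3* from day 7 to 14 of immediate repair (-0.21) and *Erbb2* from day 14 to 21 of delayed repair (0.14). Without both delayed day 7 replicate 5 and immediate day 21 replicate 4, calls against control were added for *Erbb2* at delayed days 14 and 21 (-1.29 and -1.29) and *Erbb3* at delayed day 21 (-1.21), and for *Erbb3* from day 7 to 21 of immediate repair (0.94). Values that turned were *Egfr* of delayed against immediate repair at day 7 (-0.087), *Nrg1* at day 21 (-0.042) and *Erbb3* from day 7 to 14 of delayed repair (-0.050). The causes were not tested.

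Leaving out each library of the compared groups in turn gave these ranges where a call or direction changed. Against control, *Nrg1* ranged from 1.40 to 2.498 at delayed day 21 and from 1.63 to 2.72, 1.92 to 2.45 and 1.45 to 2.19 at immediate days 7, 14 and 21. *Erbb2* ranged from -1.42 to -1.06 and *Erbb3* from -1.75 to -1.17 at immediate day 14. Between the repairs, *Egfr* ranged from -0.29 to 0.49 at day 7 and -0.083 to 0.25 at day 14, *Erbb2* from -0.23 to 0.15 at day 14 and *Nrg1* from -0.51 to 0.64 at day 21. Between days of delayed repair, *Nrg1* (1.69 to 2.57) and *Erbb3* (-0.050 to 0.47) did so from day 7 to 14, and *Erbb2* (-0.26 to 0.33) and *Egfr* (-0.24 to 0.14) from day 14 to 21. Between days of immediate repair, *Nrg1* (-0.50 to 0.59) and *Erbb3* (-0.29 to 0.40) did so from day 7 to 14, *Egfr* (-0.47 to 0.007) from day 14 to 21 and *Nrg1* (-0.87 to 0.27) from day 7 to 21. The log2 ratio of *Erbb3* to *Erbb2* against control ranged from 1.62 to 2.98 at delayed day 7, -0.016 to 0.11 at delayed day 21, -0.43 to 0.26 at immediate day 14 and -0.091 to 0.043 at immediate day 21, and a pseudocount of 2 changed no call. No interaction passed in any alternative, and no scaling moved the median of all genes by over 0.1. Depth limits *Nrg1* in control nerve and *Erbb2* at day 7, where counts were as low as 8 and 1. Counts of *Nrg1* were also as low as 4 at delayed day 7, 2 at immediate day 7 and 4 at immediate day 21. Those of *Egfr* were as low as 6 at immediate day 7.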
